A study of Mus musculus with 10 samples.

Results

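The genes described here are 36 genes of cholesterol and fatty acid synthesis in AtT20 cells: the sterol regulatory element binding proteins (SREBPs), the proteins that hold or release them, the enzymes they are best known to control, and a few sterol-handling genes. They are a list of symbols grouped by function, drawn up with earlier results of these data known, and make up 36 of the 53801 genes of the count table. All 36 passed the filter on low counts and were tested, among 14336 genes in all. AtT20/D16v-F2 cells are a mouse pituitary tumour line of corticotrophs, the cells that make adrenocorticotrophic hormone. The non-targeting control cells stably carried a lentivirus with an shRNA that has no intended target, and the *Creb3l1* knockdown cells carried one with *Creb3l1*-shRNA1. Poly(A) RNA of 5 samples of each line was sequenced. Each line is a single stable line made with 1 shRNA, so a difference between the shRNAs and any other difference between the 2 lines cannot be told apart, and the p-values measure the spread between samples of a line.

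Creb3l1 is a transcription factor held in the endoplasmic reticulum membrane and released by cleavage in the Golgi by the site-1 and site-2 proteases. The SREBPs travel the same route. Scap escorts them to the Golgi when membrane cholesterol is low, Insig proteins hold Scap and SREBP back when sterols are plentiful, and the released fragment switches on genes of sterol and fatty acid synthesis. The question addressed here is therefore how the RNA of this second set of factors and of their target genes stood in cells with less *Creb3l1*. RNA counts do not show how much SREBP was cleaved or reached the nucleus.

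The target of *Creb3l1*-shRNA1 is shown because it sets the 2 lines apart. Among mouse transcripts its 21 bases were found whole in *Creb3l1* alone, and the longest run shared with any of 211 transcripts of the 36 genes was 11 bases, in *Acly*.
Creb3l1-shRNA1 target: GAGTCGGATTTCCTCAACAAT

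*Creb3l1* itself fell from 3689 ± 148 (SD, n = 5) to 1090 ± 59.2 normalised read counts (SD, n = 5), a change of -1.76 on the log2 scale (SE 0.0356). Libraries held 17420698 to 22205107 counted reads. In non-targeting replicate 3 the RNA *Gm42418* took 4.13% of the counts against 0.106% to 0.191% elsewhere, and in knockdown replicate 2 the deviation of a gene from its line mean was correlated with GC content across 14315 genes (r = 0.29, against -0.23 to 0.058 in the other knockdown libraries). Leaving out either library left 26 of the 36 genes called. The corticotroph markers *Pomc* and *Tbx19* averaged 131400 and 11660 normalised counts in the control line and were lower in the knockdown line (log2 -0.51 and -0.27). By quantitative PCR the paper found *Pomc* mRNA unchanged in its *Creb3l1* knockdown lines. Of the other 4 corticotroph markers *Pcsk1* was lower (-0.46), *Neurod1* (0.62) and *Pitx1* (0.36) were higher, and *Crhr1*, at 18 to 48 reads per library, was not called. *Gh*, *Prl*, *Tshb*, *Fshb* and *Lhb*, markers of other pituitary cells, had at most 2 reads per library. *Sox2*, of stem-like cells, averaged 143.5 and 179.1 normalised counts in the control and knockdown lines and was higher (log2 0.33), and *Pecam1*, of endothelium, had 4 to 17 reads and was lower (log2 -1.08). The adipocyte and hepatocyte markers *Plin1*, *Adipoq*, *Cidec*, *Alb* and *Ttr* had at most 7 reads per library. The part of these marker differences in the lipid gene results was not tested.

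Most of the 36 genes differed between the lines, mainly downwards and by little. These are bulk libraries, so fewer cells expressing a gene and less RNA of it per cell cannot be told apart. At the threshold of 0.01 on the adjusted p (edgeR, over all genes tested), 8 were higher and 18 lower in *Creb3l1* knockdown cells, and 10 were not called. Calls were frequent in the whole comparison, with 40.7% of all genes tested called, 20.6% higher and 20.1% lower. They were more frequent among abundant genes, with 56% called in the top quartile of mean counts, where 20 of the 36 genes lie and 16 of those 20 were called. In 25 genes the libraries of the lines did not overlap, against 36% of all genes. Of the 36 genes, 3 were called and reached 1.5-fold, a share close to the 7.73% of all genes tested. *Abca1* was higher, and *Tm7sf2* and *Msmo1* were lower. The median log2 fold change of the 36 genes was -0.11, beside -0.00245 over all genes tested, and the median size of the change without its sign was 0.18 beside 0.15.

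**Figure D1:**
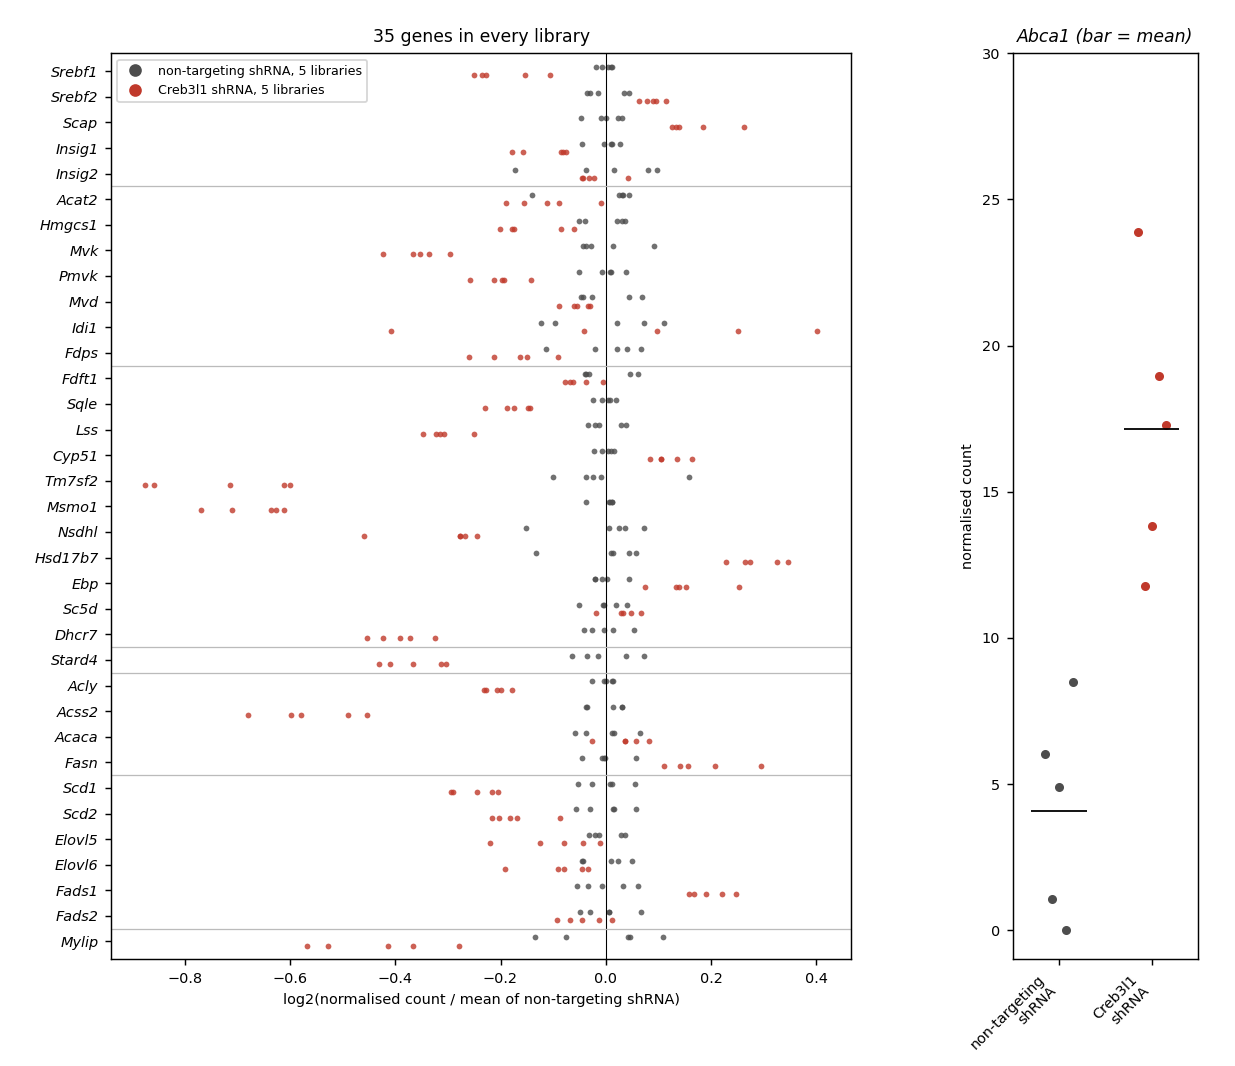
Normalised read counts of 35 genes in every library, as log2 of the ratio to the mean of the 5 non-targeting libraries (left), and counts of *Abca1* on a linear axis (right, bars are means). Grey points are non-targeting and red points *Creb3l1* knockdown libraries, and lines divide the groups of genes by role. Red points lie wholly left of the grey ones in 17 genes and wholly right of them in 7 of the 35, and also above them for *Abca1*, where the knockdown libraries held 11.8 to 23.9 counts.

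The promoters of these genes were searched for short words that the relevant factors are known to bind. RefSeq promoter windows of mouse build GRCm38.p6, from 250 bases before to 50 bases after a transcription start, were given for 29 of the 36 genes. Words were read on both strands: the sterol regulatory element as TCACCCCAC, its first letters TCACCCCA and the looser TCACNCCAC (these 3 overlap), the G-box GACGTG, the E-box CACGTG, the letters TGACGT of a cAMP response element, which can overlap a G-box, and the CCAAT box bound by NF-Y, a factor that often works beside SREBPs. TCACCCCAC was found in *Hmgcs1* alone of the 29 genes and in 0.6% of 27025 genes with a window. TCACNCCAC was likewise found in *Hmgcs1* alone (1.4% of genes), and TCACCCCA in *Hmgcs1* and *Srebf2* (1.8% of genes). The G-box, a word reported for Creb3 family factors, was in *Insig1* and *Acly*, 2 of the 29, and in 7.2% of genes. The E-box was in 7 of the 29 genes against 8.1% of genes, and TGACGT in 3 against 8.4%. CCAAT was in 23 of the 29 (79.3%) and in 41.1% of genes with a window. Of the 13 genes with a window that were lower in the knockdown line, 13 held CCAAT, as did 5 of 7 that were higher and 5 of 9 that were not called. A match describes these letters only and is not evidence of binding. Other spellings of these elements were not searched, so a window without a match is not shown to lack the element.

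The 5 windows below are shown because they hold the sterol element (*Hmgcs1*) or the G-box (*Insig1* and *Acly*), or belong to nearby steps of sterol synthesis, with *Tm7sf2* between them, that moved in opposite directions (*Msmo1* and *Cyp51*). Each runs from 5′ to 3′ along the strand of the gene, with the words named above in capitals on either strand. The *Hmgcs1* window lies on the plus strand at chr13:119690101-119690400, with the sterol element starting at position -137 from the start site and 4 CCAAT words. The *Insig1* window (chr5:28071162-28071461, plus strand) has the E-box at -101 and the G-box at 44. In *Acly* (chr11:100527951-100528250, minus strand) the G-box starts at -71. *Msmo1* (chr8:64733529-64733828, minus strand) has 3 CCAAT words, and *Cyp51* (chr5:4104648-4104947, minus strand) has 1.
Hmgcs1: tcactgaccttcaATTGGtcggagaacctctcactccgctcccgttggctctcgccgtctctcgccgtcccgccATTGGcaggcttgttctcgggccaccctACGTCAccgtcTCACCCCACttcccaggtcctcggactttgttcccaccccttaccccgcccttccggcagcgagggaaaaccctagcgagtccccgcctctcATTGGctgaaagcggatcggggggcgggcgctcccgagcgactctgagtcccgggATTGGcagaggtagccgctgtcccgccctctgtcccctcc
Insig1: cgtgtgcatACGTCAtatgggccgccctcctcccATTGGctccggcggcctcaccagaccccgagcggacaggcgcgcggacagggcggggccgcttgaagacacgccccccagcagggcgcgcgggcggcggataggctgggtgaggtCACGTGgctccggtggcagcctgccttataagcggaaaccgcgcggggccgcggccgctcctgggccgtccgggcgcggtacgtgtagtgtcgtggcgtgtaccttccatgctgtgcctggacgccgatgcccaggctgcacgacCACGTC
Acly: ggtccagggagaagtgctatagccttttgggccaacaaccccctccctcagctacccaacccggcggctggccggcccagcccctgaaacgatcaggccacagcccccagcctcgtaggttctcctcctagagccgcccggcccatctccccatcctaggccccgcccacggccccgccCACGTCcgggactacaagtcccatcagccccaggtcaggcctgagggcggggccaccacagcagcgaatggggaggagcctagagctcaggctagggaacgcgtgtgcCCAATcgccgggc
Msmo1: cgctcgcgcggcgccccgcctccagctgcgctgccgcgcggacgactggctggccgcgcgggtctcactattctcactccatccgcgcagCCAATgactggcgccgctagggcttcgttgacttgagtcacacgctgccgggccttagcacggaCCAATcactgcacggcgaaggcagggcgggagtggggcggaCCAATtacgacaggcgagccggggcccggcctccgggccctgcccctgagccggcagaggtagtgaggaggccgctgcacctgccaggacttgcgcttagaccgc
Cyp51: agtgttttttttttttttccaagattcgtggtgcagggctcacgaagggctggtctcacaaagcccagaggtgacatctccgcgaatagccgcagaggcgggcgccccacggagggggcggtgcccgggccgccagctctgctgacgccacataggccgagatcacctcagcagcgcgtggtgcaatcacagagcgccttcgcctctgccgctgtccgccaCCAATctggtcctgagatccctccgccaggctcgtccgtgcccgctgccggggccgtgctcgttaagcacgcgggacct

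Of the regulators, the SREBP genes moved in opposite directions. *Srebf1*, whose main products drive fatty acid synthesis, held 6306, 6275, 6175, 6313 and 6224 normalised counts in the control libraries and 5317, 5817, 5629, 5262 and 5347 in the knockdown libraries. The lines did not overlap, and the difference was -0.19 on the log2 scale (SE 0.0273, adjusted p = 1.16e-07). *Srebf2*, the form that mainly drives sterol synthesis, ran from 6071 to 6414 in the control line and from 6499 to 6736 in the knockdown line. It was 6.3% higher (log2 0.09, SE 0.0252, adjusted p = 0.00333), and this call was lost when non-targeting replicate 4 (adjusted p = 0.0104), non-targeting replicate 5 (0.0133) or knockdown replicate 3 (0.0105) was left out. The log2 ratio of *Srebf1* to *Srebf2* counts was -0.0246 to 0.0511 in control libraries and -0.319 to -0.187 in knockdown libraries. The gene-level counts do not separate the SREBP-1a and SREBP-1c transcripts.

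*Scap*, the escort of both SREBPs, was higher, at 5669 ± 119 and 6378 ± 257 normalised counts (SD, n = 5 each, log2 0.17, SE 0.0273, adjusted p = 1.46e-06), without overlap of the lines. *Insig1*, which retains Scap in the endoplasmic reticulum and is itself an SREBP target, held 4955, 5154, 5102, 5146 and 5210 counts in the control and 4517, 4817, 4834, 4582 and 4851 in the knockdown libraries. Its fall was 7.7% (log2 -0.12, SE 0.027, adjusted p = 0.000409). Its paralog *Insig2*, which does not depend on SREBPs in the same way, was not called (log2 -0.02, 95% interval -0.11 to 0.07, adjusted p = 0.769). The log2 ratio of *Insig1* to *Insig2* counts overlapped between the lines, at 2.52 to 2.74 in control and 2.48 to 2.58 in knockdown libraries. In knockdown replicate 2, the library with the largest correlation with GC content, *Srebf1* and *Scap* were at the highest value of their line. Their longest transcripts have 58.4% and 59.1% GC. *Srebf2*, at 57.9% GC, was at the median of its line there (6622 counts). The part of GC content in these values was not tested. Without that library *Srebf1* and *Scap* stayed called, at -0.21 and 0.15, the lowest estimate of each over leaving out single libraries.

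The enzymes from acetyl-CoA to farnesyl diphosphate were lower where they were called. Of these 7, 4 were lower and none was higher (57.1% called, beside 40.7% of all genes). *Mvk*, mevalonate kinase, fell most, from 642.8 ± 25.3 to 502.9 ± 15.98 counts (SD, n = 5 each, log2 -0.36, SE 0.0481, adjusted p = 4.41e-08). Its control libraries held 623.5 to 684.5 and its knockdown libraries 479.6 to 523.4 counts. *Pmvk*, the kinase of the next step, was 13.0% lower (log2 -0.20, adjusted p = 2.27e-06), and after correction of the counts for GC content and transcript length (GC and length offsets) the difference was -0.08 and no longer called (adjusted p = 0.0362). *Hmgcs1*, the synthase that makes HMG-CoA and the gene with the sterol element printed above, was 9.12% lower (log2 -0.14, SE 0.0294, adjusted p = 0.000129). Its control libraries held 3786 to 4025 and its knockdown libraries 3414 to 3763 counts. *Fdps*, farnesyl diphosphate synthase, was 11.5% lower (log2 -0.18, adjusted p = 0.000883) but its lines overlapped, since non-targeting replicate 5 held 758.1 and knockdown replicate 2 769.5 counts. *Fdps* shares 1124 exon bases (26.7%) on the same strand with *Gm43738*, which had 0 reads in every library. The part of this overlap in the *Fdps* value was not tested.

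The other 3 enzymes of this stretch were not called. The thiolase *Acat2* differed by -0.11 (adjusted p = 0.0745, 95% interval -0.21 to -0.01), and *Acat3*, a near copy of it, had at most 2 reads per library. *Mvd*, mevalonate diphosphate decarboxylase, differed by -0.05 (adjusted p = 0.216, interval -0.13 to 0.02) and by 0.05 with the offsets. *Idi1*, isopentenyl diphosphate isomerase, was the least even of the 36 genes apart from *Abca1* in the knockdown line. Its counts there were 358.3, 226.9, 292.5, 322.2 and 398.0, against 276.6 to 325.3 in the control line. The knockdown libraries thus lay on both sides of the control range, and the interval of the log2 difference (-0.18 to 0.37, adjusted p = 0.57) leaves its direction unresolved. The longest transcript of *Idi1* has 41.9% GC, and its lowest value was in knockdown replicate 2. Without that library the difference was 0.20 (adjusted p = 0.0309). With all libraries and the GC and length offsets it was 0.08 (adjusted p = 0.463). The part of GC content in the spread of *Idi1* was not tested.

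From squalene to cholesterol 9 of 11 enzymes were called (81.8%, beside 40.7% of all genes), 6 lower and 3 higher. Some neighbouring steps differed in direction. *Msmo1*, the methylsterol monooxygenase that starts removal of the methyl groups at carbon 4, had the smallest adjusted p of the 36 genes. It held 2735, 2821, 2830, 2823 and 2832 counts in control libraries and 1819, 1716, 1648, 1839 and 1808 in knockdown libraries. This is a fall of 37.1% (log2 -0.67, SE 0.032, adjusted p = 6.42e-21), with all knockdown libraries far below the control range. *Tm7sf2*, a sterol reductase that acts just before, held 236.4, 249.0, 251.8, 247.0 and 282.9 counts in the control line and 139.7, 138.1, 165.9, 154.4 and 167.2 in the knockdown line. It was 39.6% lower (log2 -0.73, SE 0.0826, adjusted p = 8.52e-10). *Tm7sf2* shares 532 exon bases (12.1% of its exons) on the same strand with *Vps51*, which held 58.3 to 97.5 counts in all 10 libraries and was not called.

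*Cyp51*, the lanosterol demethylase one step before *Tm7sf2*, was higher instead, with 4959 to 5094 counts in the control and 5340 to 5644 in the knockdown libraries (log2 0.12, SE 0.0254, adjusted p = 0.000134). The log2 ratio of *Msmo1* to *Cyp51* counts was -0.859 to -0.824 in control and -1.7 to -1.57 in knockdown libraries. The pair was chosen after its values were seen, so the ratio is a description. *Cyp51* shares 166 exon bases (3.8%) with *Akap9* on the opposite strand. *Akap9* stood at 1780 counts in knockdown replicate 2 and at 3277 to 3662 elsewhere, and *Cyp51* in that replicate, at 5416, was within the range of its line.

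The step after *Msmo1* was lower too, and the next ones called were higher. *Nsdhl*, the dehydrogenase that removes the oxidised carbon, was 19.0% lower (log2 -0.30, SE 0.046, adjusted p = 4.45e-07), whereas *Hsd17b7*, the ketoreductase of the same demethylation cycle, was 22.0% higher (log2 0.29, SE 0.0601, adjusted p = 0.0001). *Hsd17b7* held 314.8 to 359.2 counts in the control and 404.3 to 438.3 in the knockdown line. *Ebp*, the sterol isomerase, was 11.2% higher (log2 0.15, adjusted p = 0.00281), and the call was lost without knockdown replicate 4 (log2 0.13, adjusted p = 0.0168). *Sc5d*, the desaturase that follows, was not called (log2 0.03, interval -0.03 to 0.10, adjusted p = 0.437). *Dhcr7*, the reductase of 7-dehydrocholesterol, held 4205, 4091, 4045, 3936 and 3979 counts in the control and 3131, 3235, 3089, 2959 and 3022 in the knockdown libraries. No library of one line entered the range of the other, and the fall was 23.8% (log2 -0.39, SE 0.0283, adjusted p = 3.16e-15).

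The enzymes that make and close squalene were lower or not called. *Sqle*, squalene epoxidase, held 6047 to 6231 counts in control and 5244 to 5559 in knockdown libraries (log2 -0.18, SE 0.0253, adjusted p = 1.63e-07). *Lss*, lanosterol synthase, was 19.2% lower (log2 -0.31, SE 0.0277, adjusted p = 1.9e-12). *Fdft1*, squalene synthase, was not called (log2 -0.05, interval -0.12 to 0.01, adjusted p = 0.189). It shares 774 exon bases (18.3%) with *Ctsb* on the opposite strand, a gene that was lower (log2 -0.29). The strand setting of the counting is not given in the sources used here, and the part of this overlap in the *Fdft1* value was not tested. Over all 18 sterol synthesis enzymes 10 were lower, 3 higher and 5 not called (72.2% called, beside 40.7% of all genes). Their median per library, as log2 difference from the control mean, lay between -0.03 and 0.02 in control libraries. In knockdown libraries it lay between -0.192 and -0.125.

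**Figure D2:**
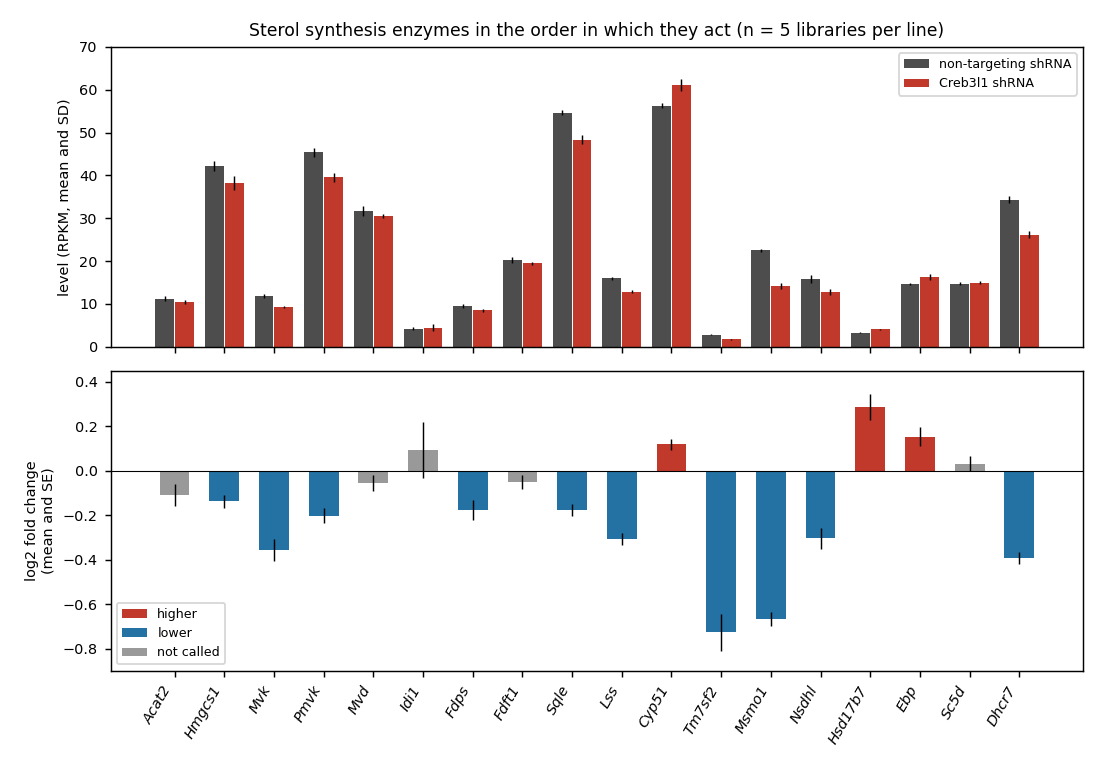
Levels (upper panel, RPKM, which is reads scaled to exon length and library size, mean and SD of 5 libraries) and log2 fold changes (lower panel, estimate and SE) of 18 sterol synthesis enzymes in the order in which they act. Colour in the lower panel gives the call. The lower steps from *Hmgcs1* to *Dhcr7* are interrupted by higher *Cyp51* (0.12), *Hsd17b7* (0.29) and *Ebp* (0.15). *Mvd*, *Idi1*, *Fdft1* and *Sc5d*, in the same stretch, were not called.

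Levels can be compared between genes only per length. As RPKM, reads scaled to exon length and library size, in the control line, the sterol enzymes ran from 2.84 ± 0.196 for *Tm7sf2* (SD, n = 5) and 3.33 ± 0.17 for *Hsd17b7* to 54.7 ± 0.615 for *Sqle* and 56.3 ± 0.599 for *Cyp51*. The lowest level of the pathway thus belonged to the enzyme with the largest fall. *Scd2* was the most abundant of the 36 genes, at 377 ± 11.5 RPKM, followed by *Fads2* at 110 ± 3.41, *Acly* at 105.1 ± 1.14, *Fasn* at 85.6 ± 2.18 and *Insig1* at 81.5 ± 1.54. *Abca1* was the least abundant, at 0.0195 ± 0.0168. Of these neighbours in the control line *Fads2* and *Acly* differed by little more than their SDs, and *Sqle* and *Srebf1* (54.8 ± 0.51) did not differ beyond them.

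*Stard4*, a carrier that moves cholesterol between membranes and is a known SREBP target, fell with the lower group of enzymes. It held 3089, 3318, 3196, 3151 and 3396 counts in the control and 2617, 2396, 2505, 2431 and 2599 in the knockdown libraries. The lines did not overlap (log2 -0.36, SE 0.0312, adjusted p = 5.19e-13).

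The genes of fatty acid synthesis split by step, with the suppliers of acetyl-CoA lower and the synthase higher. *Acss2*, which makes acetyl-CoA from acetate, held 1156, 1115, 1170, 1117 and 1169 counts in the control and 815.0, 835.9, 756.3, 766.5 and 715.2 in the knockdown libraries. This was a fall of 32.1% without overlap (log2 -0.56, SE 0.0416, adjusted p = 8.19e-15). On the opposite strand *Acss2* shares 197 exon bases (1.9%) with *Ggt7*, which was lower (log2 -0.12), and 395 (3.9%) with *Gss*, which was not called. *Acly*, which makes acetyl-CoA from citrate and carries a G-box in its window above, fell from 11250 ± 122 to 9739 ± 150 counts (SD, n = 5 each, log2 -0.21, SE 0.0215, adjusted p = 8.46e-11). *Acaca*, acetyl-CoA carboxylase, was not called (log2 0.04, interval -0.02 to 0.10, adjusted p = 0.312), and with the GC and length offsets its estimate was -0.07 (adjusted p = 0.0234).

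*Fasn*, fatty acid synthase, held 18990, 19760, 18900, 18420 and 18950 counts in the control and 20950, 23300, 21940, 20500 and 21180 in the knockdown libraries. All knockdown libraries were above all control libraries, with the highest in knockdown replicate 2, and the rise was 13.5% (log2 0.18, SE 0.0279, adjusted p = 7.31e-06). With the GC and length offsets it was 0.11 (adjusted p = 8.88e-07). The log2 ratio of *Fasn* to *Acly* counts was 0.711 to 0.801 in control and 1.06 to 1.23 in knockdown libraries.

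Among desaturases and elongases 2 of 6 were lower and 1 higher (50% called, beside 40.7% of all genes). The stearoyl-CoA desaturases *Scd1* and *Scd2*, which place the first double bond in saturated acyl chains, were 15.9% and 11.2% lower (log2 -0.25, SE 0.0268 and log2 -0.17, SE 0.0228, adjusted p = 2.31e-10 and 1.73e-07). *Scd2* held 40100 to 43380 counts in the control and 35900 to 39270 in the knockdown libraries. The *Scd* genes are close paralogs, so reads could have been divided between them. *Fads1*, the delta-5 desaturase of polyunsaturated acyl chains, was 14.6% higher (log2 0.20, SE 0.026, adjusted p = 2.85e-08), with 6519 to 7064 counts in the control and 7554 to 8041 in the knockdown libraries. Its neighbour on chromosome 19 *Fads2*, the delta-6 desaturase, was not called (log2 -0.04, interval -0.09 to 0.01, adjusted p = 0.192). The log2 ratio of *Fads1* to *Fads2* was -0.156 to -0.0881 in control and 0.0553 to 0.198 in knockdown libraries. The elongases *Elovl5* (log2 -0.09, adjusted p = 0.019) and *Elovl6* (log2 -0.09, adjusted p = 0.0467) missed the threshold, and *Elovl6* passed it with the offsets (log2 -0.17, adjusted p = 4.54e-05).

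**Figure D3:**
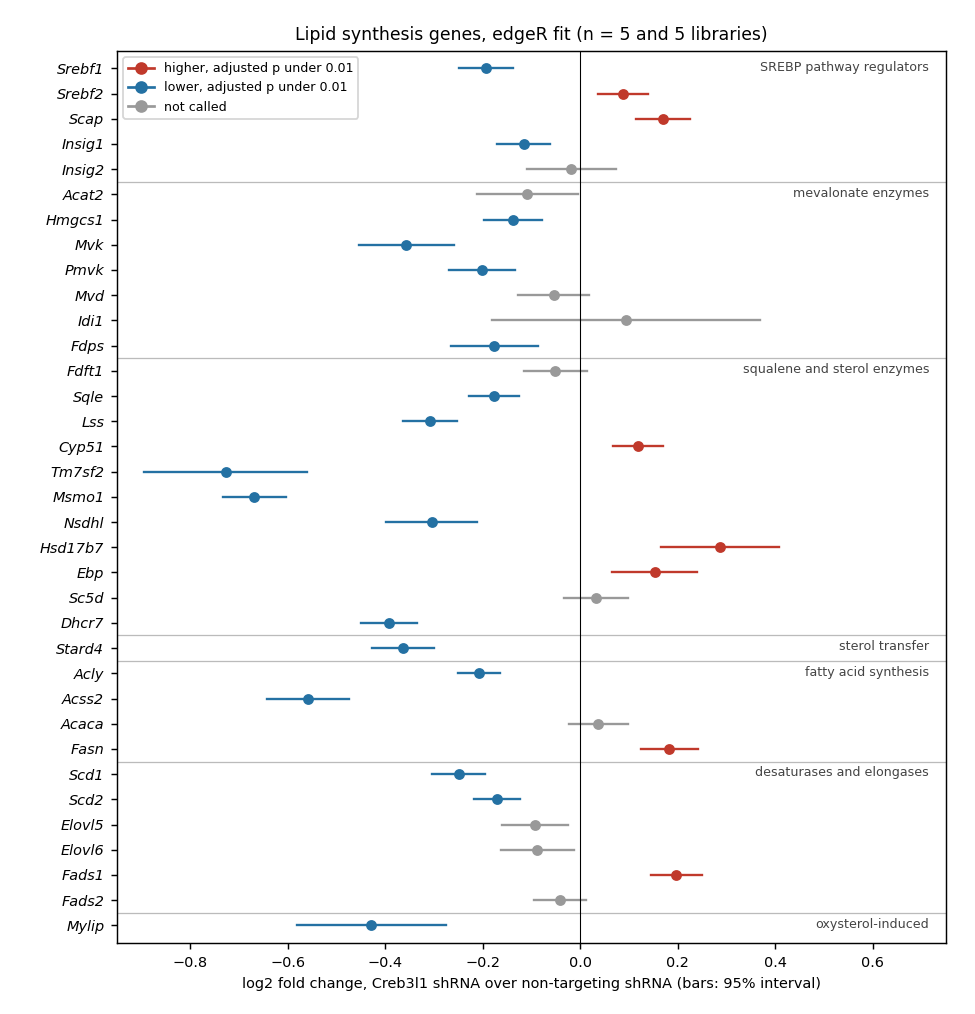
Log2 fold changes of 35 genes (all but *Abca1*) with 95% intervals from the edgeR fit, grouped by role, with blue for lower, red for higher and grey for not called. *Tm7sf2* (-0.73), *Msmo1* (-0.67) and *Acss2* (-0.56) lie farthest to the left and *Hsd17b7* (0.29) farthest to the right.

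*Abca1* and *Mylip* are switched on by oxysterols through the liver X receptors, the arm that answers sterol excess, and they moved in opposite directions. *Abca1*, a cholesterol exporter, was almost silent. It had 6.035, 1.06, 4.89, 0 and 8.486 normalised counts in the control libraries and 23.89, 11.77, 13.83, 18.95 and 17.27 in the knockdown libraries. The lines did not overlap (log2 2.05, SE 0.413, adjusted p = 6.66e-05), at 0 to 26 reads per library in libraries of at least 17420698 reads. Its level of 0.0816 ± 0.0224 RPKM in the knockdown line was still the lowest of the 36 genes there. *Mylip*, a ubiquitin ligase that removes lipoprotein receptors, held 317.8, 279.8, 304.4, 268.5 and 303.6 counts in the control and 221.4, 242.9, 228.7, 199.0 and 204.5 in the knockdown libraries, a fall of 25.7% without overlap (log2 -0.43, SE 0.0757, adjusted p = 7.5e-06).

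Of 10 genes of SREBP processing and turnover given here, 1 was lower and 9 were not called (10% called, beside 40.7% of all genes). The proteases that cut both SREBPs and Creb3l1 were not called: *Mbtps1* (site-1 protease) averaged 4718 and 4677 counts (n = 5 each, log2 -0.01, interval -0.07 to 0.04), and *Mbtps2* (site-2 protease) differed by 0.11 (interval 0.03 to 0.19, adjusted p = 0.0244). *Erlin1*, of the machinery that degrades proteins when sterols are plentiful, was lower (log2 -0.29, adjusted p = 2.34e-08). In the branch that uses farnesyl diphosphate for other isoprenoids, 1 of 15 genes was higher and 2 were lower (20% called, beside 40.7% of all genes). These were *Ggps1*, which makes geranylgeranyl diphosphate (log2 0.19, adjusted p = 0.00913), *Nus1*, a subunit of the enzyme for dolichol synthesis (log2 -0.36, adjusted p = 1.72e-12), and *Coq2* of coenzyme Q synthesis (log2 -0.31, adjusted p = 2.74e-07). The *Ggps1* lines overlapped, and its call was lost in 9 of 18 other fits (adjusted p = 0.0122 to 0.0659): DESeq2, no robust estimation, the GC and length offsets, and without non-targeting replicate 1, 2, 3 or 4 or knockdown replicate 3 or 4.

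Of 22 tested genes of sterol transport, storage and oxysterol response, 5 were higher and 7 lower (54.5% called, beside 40.7% of all genes). The higher ones included *Vldlr*, a lipoprotein receptor (829.7 ± 38.4 and 1335 ± 65.2 counts, SD, n = 5 each, log2 0.69, adjusted p = 6.84e-18), the lysosomal cholesterol carrier *Npc2* (log2 0.35, adjusted p = 4e-13) and *Gramd1c*, of a family that moves cholesterol from the plasma membrane (log2 0.88, adjusted p = 4.78e-08). *Nr1h3*, which encodes liver X receptor alpha, was lower (log2 -0.38, adjusted p = 0.000158), as were *Tmem97*, the sigma-2 receptor (log2 -0.33, adjusted p = 2.23e-12), and the sterol-binding *Stard5* (log2 -0.31, adjusted p = 3.36e-08).

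Of 28 tested genes that otherwise serve lipogenesis and acyl chains, 5 were higher and 9 lower, 4 of the lower ones by at least 1.5-fold (50% called beside 40.7% of all genes, and 7.73% of all genes at 1.5-fold). *Acacb*, the mitochondrial acetyl-CoA carboxylase, fell from 961.5 ± 54.7 to 446.8 ± 25.4 counts (SD, n = 5 each, log2 -1.11, SE 0.0482, adjusted p = 2.67e-22) while its paralog *Acaca* was not called. *Acsl3*, an acyl-CoA synthetase of lipid droplets (log2 -0.80, adjusted p = 6.91e-24), and *Dgat2*, which makes triacylglycerol (log2 -0.80, adjusted p = 1.58e-19), were also lower. *Hacd2* and *Hacd1*, dehydratases of the elongation cycle, were higher (log2 0.30 and 0.28), as was *Acsl6* (log2 0.22), whose call was lost with the offsets (0.15, adjusted p = 0.0233). In fatty acid oxidation 7 of 18 tested genes were higher and 6 lower (72.2% called, beside 40.7% of all genes, of which 20.6% were higher and 20.1% lower). Among these calls, that of *Hadhb* (higher) was lost in 4 of 18 other fits (adjusted p = 0.0152 to 0.255). That of *Eci1* (lower) was lost in 5 (adjusted p = 0.0111 to 0.0917). *Cpt1a*, the entry step of acyl chains into mitochondria, held 760.4 ± 31.6 and 1128 ± 32.9 counts (log2 0.57, adjusted p = 1.73e-15), and *Acad9* and *Cpt1c* were higher too (log2 0.43 and 0.39). The nuclear receptor *Ppard* (log2 -0.61), *Hadh* (-0.39) and *Acadvl* (-0.36) were lower.

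**Figure D4:**
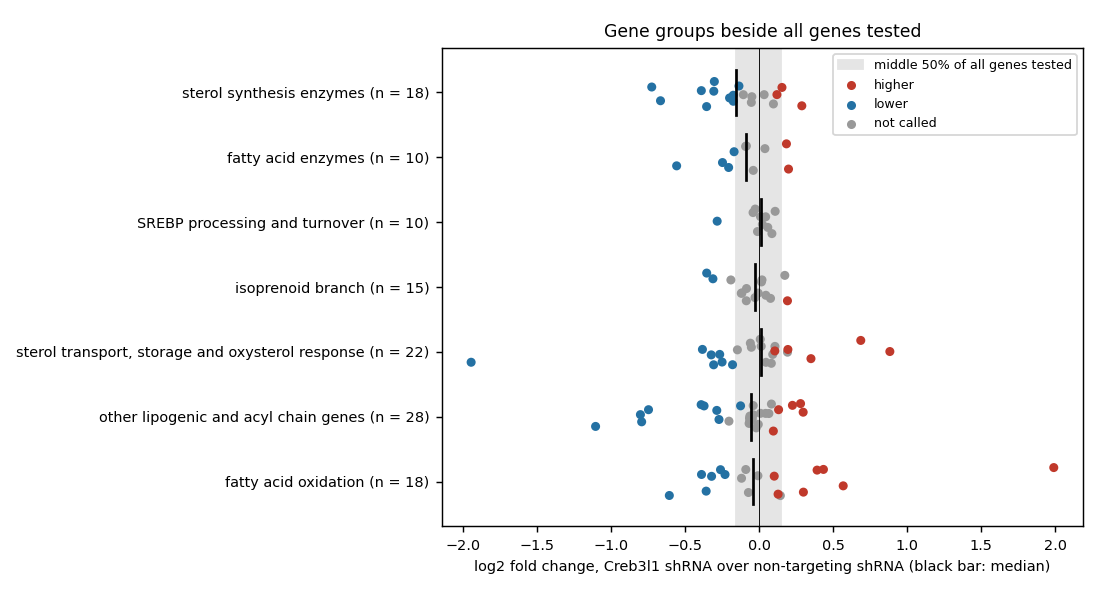
Log2 fold change of each tested gene in 7 groups, coloured by call, with the group median as a black bar. The grey band from -0.16 to 0.15 runs from the lower to the upper quartile of all genes tested, and the sterol synthesis enzymes have the lowest median (-0.16) of the groups shown.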

How the data were processed

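RNA of 10 samples, 5 per line, was sequenced in pairs on an Illumina platform after poly(A) selection with a stranded kit. Per the labels, the authors checked reads with FastQC, aligned them to GRCm38 with STAR and counted them per Ensembl gene with featureCounts. The deposited values are raw counts, whole numbers without normalisation. The strand setting of the counting is not given in the sources used here. Symbols and exon lengths came from GENCODE M21 (53620 of 53801 identifiers had a symbol), and promoter windows from RefSeq.

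The comparison was fitted on all 10 libraries with edgeR 4.0.16 (R 4.3.3): filterByExpr, TMM factors (0.953 to 1.007), the quasi-likelihood test with robust estimation, and Benjamini-Hochberg adjustment over 14336 genes, with a threshold of 0.01. Normalised counts are counts divided by TMM-scaled library sizes, on the scale of the mean library. Standard errors were derived from the F statistic. Depth was 17420698 to 22205107 counts per library. The alternatives were DESeq2 1.42.0, RLE factors, library totals, other filters, a replicate block, GC and length offsets, other thresholds, no robust estimation (chosen after seeing the data) and leaving out each library. The scripts were tested on simulated data. The genes and lists were chosen with earlier results of these data known, so no p is adjusted over a list alone. All 36 genes were named, and of each further list the 3 called genes with the largest change in each direction at a mean of at least 100 normalised counts. An item of the SREBP processing list is not reported here.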

Additional observations from a re-analysis of the deposited data

Results flagged for a closer look

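In 72 sets of 5 libraries (36 genes in 2 lines), the highest or lowest library stood apart from the others by Dixon's criterion in 5, where 1 in 20 by chance gives 3.6. *Insig2* was high in knockdown replicate 5 (857.9 normalised counts, the others 806.7 to 819.6). *Acat2* was low in non-targeting replicate 2 (523.5 against 587.4 to 595.4). *Msmo1* was low in non-targeting replicate 1 (2735 against 2821 to 2832), a value still above every knockdown library. *Nsdhl* was low in knockdown replicate 5 (666.1 against 755.2 to 773.2). *Hsd17b7* was low in non-targeting replicate 1 (314.8 against 347.2 to 359.2).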

How the results depend on the processing

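Requiring a change of at least 1.5-fold left 3 of the 36 genes called (1 higher, 2 lower) and 1108 of all genes, with 0 called in SREBP processing, 0 in the isoprenoid branch, 3 in sterol transport, 4 among other lipogenic genes and 2 in fatty acid oxidation. At a threshold of 0.05, where 7209 of all 14336 genes tested were called, 7 of 15 isoprenoid genes and 2 of 10 of SREBP processing were called. SREBP processing also had 2 with GC and length offsets, and leaving out each library gave it 1 to 2 (2 without knockdown replicate 4). With GC and length offsets the median of the 36 genes was -0.0867, and the estimates that changed sign were *Mvd* (0.0453), *Sc5d* (-0.0246), *Acaca* (-0.0697) and *Fads2* (0.0095), of which none was called. *Insig2*, also not called, ranged from -0.0562 to 0.0067 when each library was left out, above 0 without non-targeting replicate 3 (0.0028) or 5 (0.0067). Over 719 repeats for single genes, the other thresholds included, 681 kept direction and side of the threshold, 28 lost the call and 4 gained it. The losses include every called gene below 1.5-fold. Among fits at the main threshold, calls of the 36 genes were lost only for *Srebf2* (kept in 15 of 18 fits), *Pmvk* and *Ebp* (17 of 18 each). Leaving out 1 library gave 25 to 27 called genes. The replicate numbers do not pair the samples (correlations of deviations -0.0599 to 0.0366), and with the replicate block 26 genes were called. *Abca1* was not tested when every library had to hold 10 counts.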
